A study of Mus musculus with 6 samples.

Results

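The genes described here cut, join, trim and export transfer RNA (tRNA) after it is transcribed, and they were read in brain RNA of mice with and without TRMT1L. They are the 9 genes Tsen15, Tsen34, Tsen54, Clp1, Rtcb, Elac1, Elac2, Trnt1 and Xpot, out of 55450 genes in the deposited tables. They were matched by symbol in the GENCODE M21 annotation. The match used no measured value, but the list was chosen with earlier results of these data known. Each symbol matched 1 gene, and all 9 passed the filter on low counts that left 21237 genes for testing. The study sequenced long RNA, size-selected above 200 bp, from whole mouse brain in 3 TRMT1L KO and 3 WT libraries. TRMT1L is a relative of TRMT1, which methylates a guanosine of tRNA. The labels give genotype and tissue; allele, strain, age and sex are not stated there, and nothing says whether each library came from its own animal beyond the words biological triplicates. The p-values below measure the spread between these libraries.

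A tRNA is made as a precursor with extra bases at both ends, and some precursors also hold an intron near the anticodon. The intron is cut out by the tRNA splicing endonuclease, a complex that includes TSEN34, TSEN15 and TSEN54 and binds the RNA kinase CLP1, and the exons are joined by the ligase RTCB. The extra bases at the 5′ end are removed by ribonuclease P and those at the 3′ end by the RNase Z enzyme ELAC2. ELAC1 is a shorter RNase Z. TRNT1 then adds the CCA tail that carries the amino acid. The finished tRNA leaves the nucleus with exportin-t, the product of Xpot. Mutations of several endonuclease genes and of CLP1 are known from inherited disorders with a small cerebellum and pons. tRNAs themselves are shorter than the size limit of these libraries, so the messenger RNAs of the processing enzymes were measured and not their products.

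Depth was similar in all libraries, with 31201119 to 36145961 counts in genes on the sense strand. Trmt1l, the targeted gene, had 1034 to 1279 counts in WT and 93 to 106 in KO libraries, and its KO level was 8.33% of WT (log2 fold change -3.58, SE 0.0813, adjusted p = 6.95e-10 in edgeR's quasi-likelihood test). Markers written down for neurons, astrocytes, oligodendrocytes and microglia were present in every library, and 0 of these markers were called. The genotypes did not overlap in 2 of 4 neuron, 1 of 4 astrocyte, 1 of 4 oligodendrocyte and 1 of 4 microglia markers, against 14.4% of all genes tested. The liver markers Alb and Apoa1 summed to at most 0.415 CPM (counts scaled to library size). KO library 3 stood apart in 1 of the 2 olfactory mucosa markers, Bpifb9b, at 29.7 CPM against at most 0.699 CPM in the other libraries, while Omp, at 8.22 CPM, lay within their range. It also had the most of the astrocyte marker Gfap, at 248 CPM against 115 to 140 CPM. KO library 1 had the most of the blood markers, at 213 CPM against 84.7 to 157 CPM. The choroid plexus markers summed to 292 to 344 CPM in WT and 350 to 420 CPM in KO libraries, without overlap, though singly 1 of the 3 markers, Ttr, did not overlap and Kl and Folr1 did. The sums of the oligodendrocyte markers were 3308 to 3712 and 2812 to 3376 CPM. Multimapping reads made up 4.61% to 5.16% of mapped reads in WT and 5.25% to 5.60% in KO. Reads outside genes made up 50.3% to 52.2% in WT and 48.6% to 49.8% in KO, and reads in several genes 0.784% to 0.808% and 0.863% to 0.909%, so that the genotypes did not overlap in these shares. The part of these differences in the values below was not tested.

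None of the 9 genes passed the test for a difference by genotype. In edgeR's quasi-likelihood test, with p-values adjusted over all 21237 genes, 0 of 9 had an adjusted p-value under 0.05, and the smallest was 0.600 for Tsen34. Over all genes tested the share called was 0.00942%, which is 2 genes, so a count of 0 among 9 is near the background. limma-voom also called 0 of the 9, as did DESeq2's Wald test, which gave an adjusted p-value for Rtcb and Xpot alone. In bulk tissue, fewer cells of a type and less RNA per cell cannot be told apart. Without adjustment 1 of 9, Tsen34, had a p-value under 0.05 and was higher in KO, where 7.92% of all genes tested had such a p-value and 4.54% were higher in KO with it. This held for Tsen34 in 11 of 17 alternatives and not in the other 6, among them DESeq2's Wald test and the GC correction, after which Tsen15 had such a p-value instead. With GC correction 925 of the 21237 genes tested had such a p-value, against 1682 in the main fit. The log2 fold changes (KO over WT) ran from -0.042 to 0.17, with a median of 0.019, against a median of 0.00013 over all genes tested and 0.013 over the 9959 genes within the abundance range of the 9. Their absolute size was under 0.1 in 7 of the 9, and their median ran from 0.0076 to 0.042 over the 17 alternatives. The 95% confidence interval of Tsen34 ran from 1.02-fold to 1.252-fold, and those of the other 8 genes lay between 0.830-fold and 1.20-fold.

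**Figure D1:**
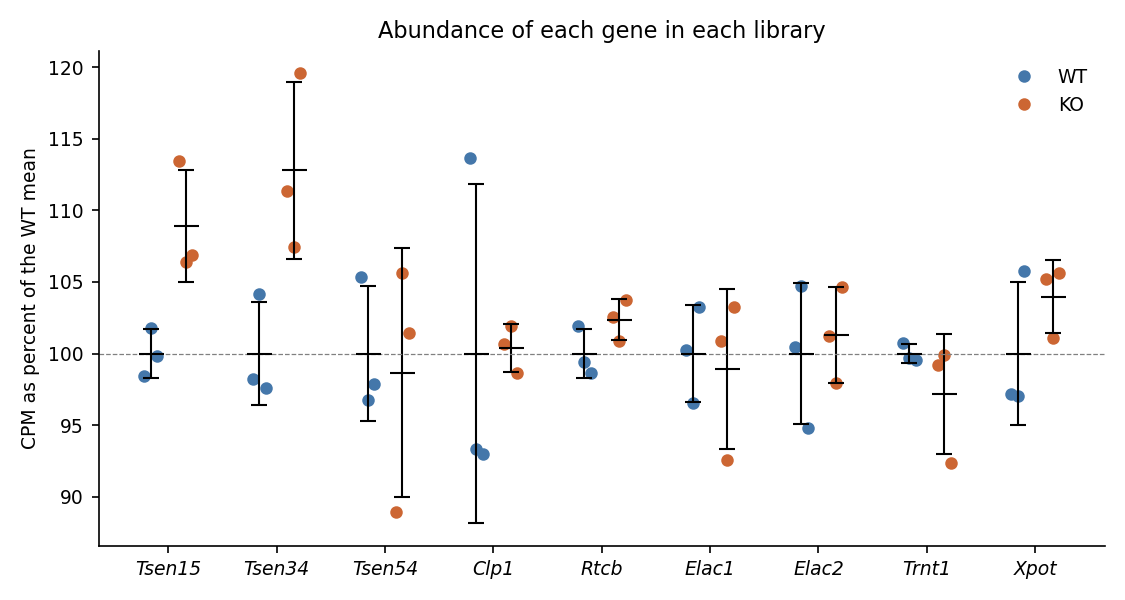
Each point is 1 library, its CPM drawn as percent of the gene's WT mean (vertical axis, not starting at 0), with WT in blue and KO in orange and bars for the mean and SD of 3 libraries. All KO points lie above all WT points for Tsen15 and Tsen34 alone.

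The level of each gene was compared per length, as TPM, a length-scaled share of each library's transcripts, over the union of annotated exons. Rtcb was the most abundant of the 9, at 111 ± 3.67 TPM in WT and 109 ± 1.01 TPM in KO (SD, n = 3 each), above 94.2% of the genes tested. Xpot followed at 58.3 ± 1.78 TPM in WT and 57.9 ± 1.23 TPM in KO. No library's value of either gene overlapped that of its neighbour in the order. Elac1 (37.1 ± 0.301 TPM in WT), Elac2 (31.7 ± 2.38 TPM), Tsen34 (28.7 ± 1.75 TPM) and Trnt1 (27.3 ± 0.729 TPM) came next, and over the 6 libraries each of these 4 overlapped its neighbour among them. Tsen15 stood below them at 15.7 ± 0.608 TPM. Clp1 (8.64 ± 1.03 TPM) and Tsen54 (8.48 ± 0.418 TPM) were the lowest and overlapped each other. These were the 2 genes of the 9 below the median gene tested, which had 12.9 TPM. The mean of Rtcb over the 6 libraries was 13.3 times that of Tsen54.

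**Figure D2:**
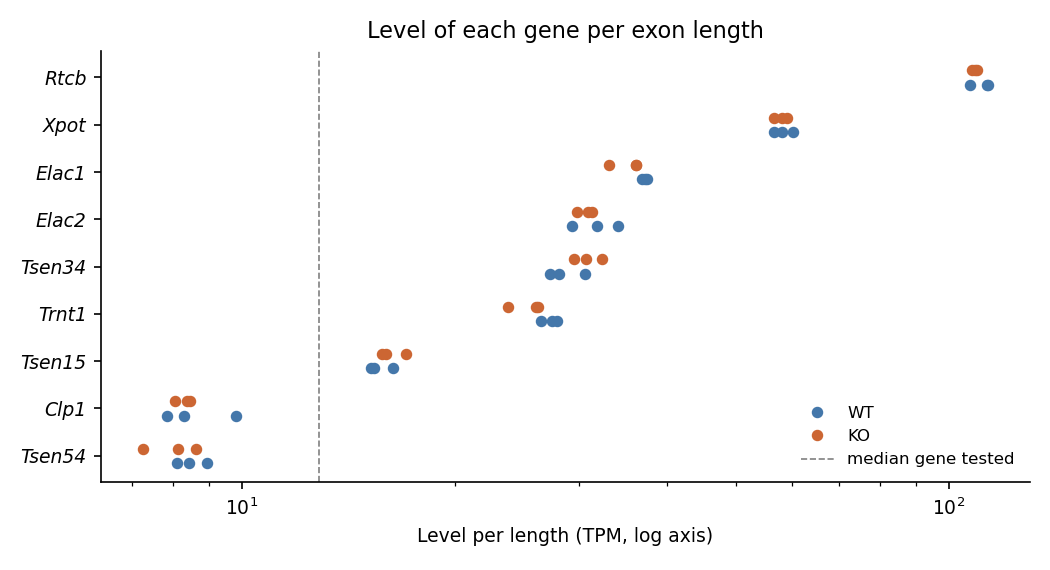
Points are the TPM of each gene in each library on a log axis, WT in blue and KO in orange, with genes ordered by their mean. Rtcb is highest near 110.0 TPM, and Clp1 and Tsen54 lie left of the dashed line at 12.9 TPM, the median of all genes tested.

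The 3 endonuclease subunits among the 9 had different levels. In WT the per-length levels were 28.7 TPM for Tsen34, 15.7 for Tsen15 and 8.48 for Tsen54. The length used mattered: per longest annotated transcript in place of all exons, Tsen15 had 22.1 TPM, Tsen34 33.3 TPM and Trnt1 42.9 TPM in WT. Trnt1 then ranked next after Xpot and Clp1 (7.32 TPM) below Tsen54 (8.57 TPM), while Rtcb, Xpot and Tsen15 had the same ranks as before.

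The search used 7 windows of the 250 bases before a RefSeq start site (GRCm38.p6), from 6 of the 9 genes. Clp1, Elac2, Tsen15, Tsen54 and Xpot have 1 each and Tsen34 has 2. No window of Rtcb, Elac1 or Trnt1 was searched, so the counts of windows below say nothing of these genes. By the GENCODE M21 annotation 5 of the 7 hold exon bases of their own gene, 235 and 117 for Tsen34, 63 for Clp1, 15 for Tsen54 and 6 for Tsen15. What these windows share was searched for on both strands with 6 motifs chosen with earlier results known: the GC box bound by SP1 (GGGCGG), NFY (ATTGG), ETS factors (CCGGAAG), NRF1 (by its palindromic consensus), YY1 (CAAGATGGC) and the composite site of ATF4 and C/EBP (TGATGNAA). All 7 windows held a GC box, which 32.7% of 32851 windows of the same length hold. NFY's motif was in 1 of 7 (33.8% of all windows), and the ETS, NRF1, YY1 and ATF4 motifs were in 0 of 7 (6.91%, 3.74%, 0.581% and 3.45% of all). The GC content was 52.4% to 71.6%, against a median of 52.4% over all windows. The windows held 9 to 32 CpG (a C followed by a G), against a median of 6 over all windows. Whether the GC boxes go beyond what such a base content gives was not tested. A match is a string of letters and not a bound site. The sequences of 4 genes are shown 5′ to 3′ in the direction of transcription, with GC boxes and NFY motifs of either strand in capitals, to show the motif found in each of the 7 windows searched. Tsen15 (chr1:152386683-152386932, minus strand) lies on the chromosome of Trmt1l, Tsen54 (chr11:115814489-115814738, plus strand) had the lowest level over the union of exons, Elac2 (chr11:64978785-64979034, plus strand) is the sole one with NFY motifs, and Xpot (chr10:121626333-121626582, minus strand) has the highest GC content.
Tsen15: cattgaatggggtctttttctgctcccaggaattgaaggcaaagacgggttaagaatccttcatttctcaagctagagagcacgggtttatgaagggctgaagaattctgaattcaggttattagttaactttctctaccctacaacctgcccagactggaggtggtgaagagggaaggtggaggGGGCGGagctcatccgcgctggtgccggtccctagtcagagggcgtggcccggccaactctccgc
Tsen54: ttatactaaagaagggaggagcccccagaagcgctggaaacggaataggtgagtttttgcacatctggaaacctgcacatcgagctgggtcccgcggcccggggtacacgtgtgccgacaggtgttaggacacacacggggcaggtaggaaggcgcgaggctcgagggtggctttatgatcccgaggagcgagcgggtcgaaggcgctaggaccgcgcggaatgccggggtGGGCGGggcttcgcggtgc
Elac2: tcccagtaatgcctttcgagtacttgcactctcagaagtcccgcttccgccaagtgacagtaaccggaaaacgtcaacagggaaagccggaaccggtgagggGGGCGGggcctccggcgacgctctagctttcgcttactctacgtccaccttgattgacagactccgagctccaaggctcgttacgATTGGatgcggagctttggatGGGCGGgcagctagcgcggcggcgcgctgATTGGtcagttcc
Xpot: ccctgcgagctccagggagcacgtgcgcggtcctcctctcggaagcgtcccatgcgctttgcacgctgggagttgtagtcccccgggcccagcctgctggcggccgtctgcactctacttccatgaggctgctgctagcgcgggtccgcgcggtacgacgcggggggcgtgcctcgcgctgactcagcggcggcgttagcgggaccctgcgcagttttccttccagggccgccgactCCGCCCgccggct

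Tsen34 (ENSMUSG00000035585.16, chromosome 7, 3692863 to 3701024, plus strand of GRCm38) encodes a catalytic subunit of the endonuclease. Its abundance was 18.4, 19.5 and 18.3 CPM in WT libraries 1 to 3 and 20.9, 20.1 and 22.4 CPM in KO libraries 1 to 3. All 3 KO libraries were above all 3 WT libraries, with the gap between 19.5 and 20.1 CPM smaller than the SD of the KO group. The log2 fold change was 0.17 (SE 0.0685, 95% interval 0.024 to 0.32), a 1.13-fold higher mean in KO, which did not pass the threshold (edgeR adjusted p = 0.600, unadjusted p = 0.0264). The transcript GC content of Tsen34 was 56.7%, and with a correction for GC content its log2 fold change was 0.10 (adjusted p = 0.993 in edgeR). Tsen34 shares 277 exonic bases with Mboat7 on the opposite strand, and 6.74% to 10.1% of its stranded reads were counted on that strand. These opposite-strand counts, 46 to 68 per library, had a log2 fold change of -0.036 (edgeR adjusted p = 0.993).

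Tsen15 (ENSMUSG00000014980.14, chromosome 1, 152370735 to 152386688, minus strand) encodes a structural subunit. It had 16.7, 17.2 and 16.9 CPM in the WT libraries and 19.2, 18.0 and 18.1 CPM in the KO libraries. The groups did not overlap, and KO library 1 was the highest. The log2 fold change was 0.12 (SE 0.0660, 95% interval -0.021 to 0.27; edgeR adjusted p = 0.670), and it ranged from 0.092 to 0.15 over the alternatives. Tsen15 lies 0.913 Mb from the end of Trmt1l, the gene targeted in these mice. Within 1 Mb of Trmt1l 16 other genes were tested, Tsen15 among them, and in 8 of these the groups did not overlap, against 14.4% of all genes tested. Of these 8 genes 2 overlap Trmt1l itself. Whether sequence around the targeted locus has a part in the value of Tsen15 was not tested.

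The lack of overlap in Tsen15 and Tsen34 is 2 of 9 genes in the direction of KO, where 7.46% of all genes tested had it, and 0 of 9 had it in the other direction (6.97% of all). In either direction the share over all genes was 14.4%. This separation depended on the scale: in TPM, where the median gene tested was lower in KO by 0.066 on the log2 scale, WT reached 30.6 TPM for Tsen34 and KO began at 29.6 TPM, and for Tsen15 the values were 16.4 and 15.8 TPM. On that scale 2 of 9 genes, Tsen15 and Tsen34, had a higher mean in KO and 7 a lower one, where 29.9% of all genes tested had a higher one. There 0 of 9 genes were higher in KO without overlap and 2, Elac1 and Trnt1, were lower, where 2.27% and 15.5% of all genes tested were.

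Tsen54 (ENSMUSG00000020781.14, chromosome 11, 115814724 to 115823094, plus strand), the other structural subunit, had 5.66, 5.20 and 5.26 CPM in WT and 4.78, 5.67 and 5.45 CPM in KO libraries. Clp1 (ENSMUSG00000027079.15, chromosome 2, 84722104 to 84727350, minus strand), the kinase that phosphorylates RNA 5′ ends, had 6.76, 5.55 and 5.53 CPM in WT and 5.99, 6.06 and 5.87 CPM in KO. Both sets of values overlapped, and WT library 1 gave the highest value of Clp1. With 163 to 246 counts per library, these were the least deeply covered of the 9 genes, and counting error alone gives a coefficient of variation of 7.40% for Tsen54 and 7.0% for Clp1. Their log2 fold changes of -0.021 (SE 0.114, 95% interval -0.27 to 0.23) and 0.0029 (SE 0.114, 95% interval -0.25 to 0.25) had the widest intervals of the 9. Without WT library 1 the value of Clp1 was 0.11, and after GC correction that of Tsen54 was -0.11.

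**Figure D3:**
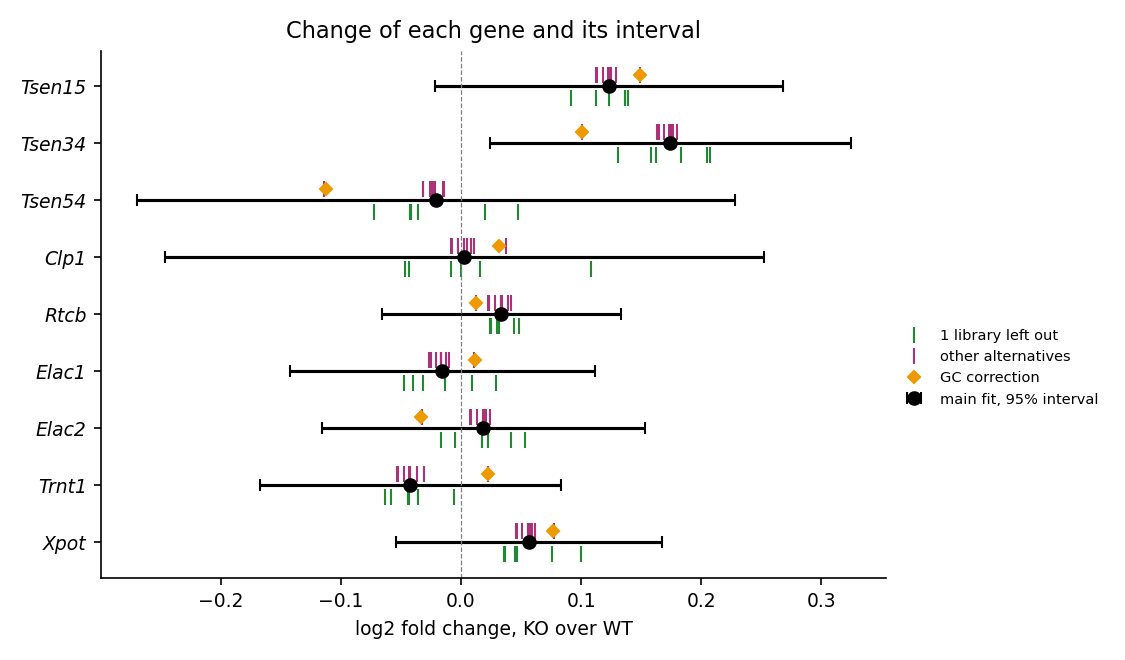
Black points and lines are the log2 fold change (horizontal axis, KO over WT) and its 95% interval for each of the 9 genes, green ticks the 6 fits that each leave out 1 library, the orange diamond the GC-corrected fit and purple ticks the remaining alternatives. The interval of Tsen34 alone lies above 0, and the widest intervals are those of Tsen54 and Clp1.

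Rtcb (ENSMUSG00000001783.3, chromosome 10, 85938637 to 85957823, minus strand) encodes the ligase that joins tRNA exons and, in the unfolded protein response, the cut messenger RNA of Xbp1. It had 76.4, 74.5 and 73.9 CPM in WT and 76.8, 75.5 and 77.7 CPM in KO libraries, and the groups overlapped. The log2 fold change of 0.034 (SE 0.0454) had the narrowest interval of the 9, from -0.066 to 0.13, or 0.956-fold to 1.10-fold. Of its 6 listed partners none was called, and their values ran from -0.065 for Fam98a to 0.089 for Fam98c. The helicase Ddx1 had -0.063 (SE 0.0521; edgeR adjusted p = 0.793).

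Xbp1, the ligase's messenger RNA substrate, was named after its values were seen. It had 45.5, 50.7 and 51.0 CPM in WT and 49.0, 89.8 and 49.9 CPM in KO libraries. KO library 2 alone was high, and the remaining KO values lay within the WT range. The fitted log2 difference of 0.36 (SE 0.184; adjusted p = 0.655 in edgeR) was 0.012 without KO library 2. Ern1, the nuclease that cuts Xbp1 RNA, had 0.058 (SE 0.0734), with 22.7 to 26.3 CPM in KO libraries.

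Elac1 (ENSMUSG00000036941.2, chromosome 18, 73735038 to 73754479, minus strand) and Elac2 (ENSMUSG00000020549.14, chromosome 11, 64979038 to 65002069, plus strand) encode the short and the long RNase Z, of which the long form also works in mitochondria. Elac1 had 47.7, 45.9 and 49.1 CPM in WT and 48.0, 44.0 and 49.1 CPM in KO libraries. Elac2 had 28.6, 29.8 and 27.0 CPM in WT and 28.8, 27.8 and 29.7 CPM in KO. In both genes the groups overlapped over most of their range. The log2 fold changes were -0.016 (SE 0.0580, 95% interval -0.14 to 0.11) and 0.019 (SE 0.0614, 95% interval -0.12 to 0.15), with edgeR adjusted p = 0.966 and 0.961.

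Trnt1 (ENSMUSG00000013736.16, chromosome 6, 106769120 to 106782474, plus strand), the CCA-adding enzyme of nucleus and mitochondria, had 31.3, 30.9 and 30.9 CPM in WT and 30.8, 31.0 and 28.7 CPM in KO libraries. KO library 3 was low and the other libraries differed by less than 1 CPM. The fitted log2 difference of -0.042 (SE 0.0572, 95% interval -0.17 to 0.083; adjusted p = 0.879 in edgeR) was -0.0061 without KO library 3 and 0.022 after GC correction. Trnt1 overlaps Crbn on the opposite strand over 144 exonic bases, and 39.3% to 43.6% of its stranded reads were counted on that strand. Its per-length level in WT was 33.2 TPM when strand was ignored, against 27.3 TPM on the sense strand. The opposite-strand counts, 658 to 749 per library, had a log2 fold change of -0.10 (edgeR adjusted p = 0.955), and those of Elac2, whose end overlaps Arhgap44, had -0.12 (edgeR adjusted p = 0.973). The 6 genes besides Trnt1, Elac2 and Tsen34 had 0 to 17 opposite-strand counts in a library.

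Xpot (ENSMUSG00000034667.8, chromosome 10, 121587380 to 121626332, minus strand) encodes the exportin that carries mature tRNA out of the nucleus with the GTPase Ran. It was the most deeply counted of the 9, with 2758 to 3462 counts per library. Its abundance was 88.1, 88.0 and 95.9 CPM in WT and 95.4, 91.6 and 95.8 CPM in KO libraries. WT library 3 had the highest value, so the groups overlapped. The log2 fold change was 0.056 (SE 0.0505, 95% interval -0.054 to 0.17; edgeR adjusted p = 0.806), and it was 0.0996 without WT library 3, 0.036 without WT library 2 and 0.037 without WT library 1.

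The wider list of 44 tRNA processing genes, the 9 included, was read in the same way. None was called by edgeR's quasi-likelihood test, while 2 had an unadjusted p-value under 0.05 (7.92% of all genes tested) and limma-voom called 0. DESeq2's Wald test also called 0. It gave no adjusted p-value for 7 of the 9, nor for Trmt1l (unadjusted p = 1.12e-202), so those 7 could not be called by it. How many of the other 35 genes had an adjusted p-value was not counted. The groups did not overlap in 6 of the 44, 4 higher and 2 lower in KO, or 13.6% against 14.4% of all genes tested. The median log2 fold change was 0.036, and 29 of 44 values were positive where 50.1% of all genes tested and 55.6% of those in the abundance range of the 9 were. In TPM 14 of 44 had a higher mean in KO.

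By role, the 11 proteins of ribonuclease P, which cuts the 5′ end, had 10 positive values and a median of 0.065, and 0 were called. In TPM 5 of the 11 had a higher mean in KO, where 29.9% of all genes tested did. The highest among them was Rpp25l at 0.28 (SE 0.148; edgeR adjusted p = 0.659), a gene with 3.37 to 5.24 CPM. The 3 proteins of the mitochondrial ribonuclease P had a median of -0.11, from -0.15 for Prorp, its nuclease subunit, to 0.079 for Hsd17b10. Among the 8 export genes 7 values were positive, with a median of 0.058, and in TPM 3 of the 8 had a higher mean in KO. Rangap1, which activates GTP hydrolysis by Ran, had 151, 148 and 152 CPM in WT and 159, 170 and 155 CPM in KO libraries. All its KO values were above its WT values, the highest in KO library 2. The fitted log2 difference, 0.10 with SE 0.0467 (adjusted p = 0.623 in edgeR, unadjusted p = 0.0470), was 0.064 without KO library 2 and 0.043 after GC correction. The unadjusted p-value of Rangap1 was under 0.05 in 4 of 17 alternatives. The 9 genes of end maturation had a median of -0.014, and Rtca, the RNA 3′ cyclase, had the lowest value at -0.092 (SE 0.0548; edgeR adjusted p = 0.706). Cnp, a myelin enzyme that opens 2′,3′-cyclic phosphates, was the most abundant of the 44 per length, at 209 ± 16.3 TPM in WT and 197 ± 19.2 TPM in KO (SD, n = 3).

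**Figure D4:**
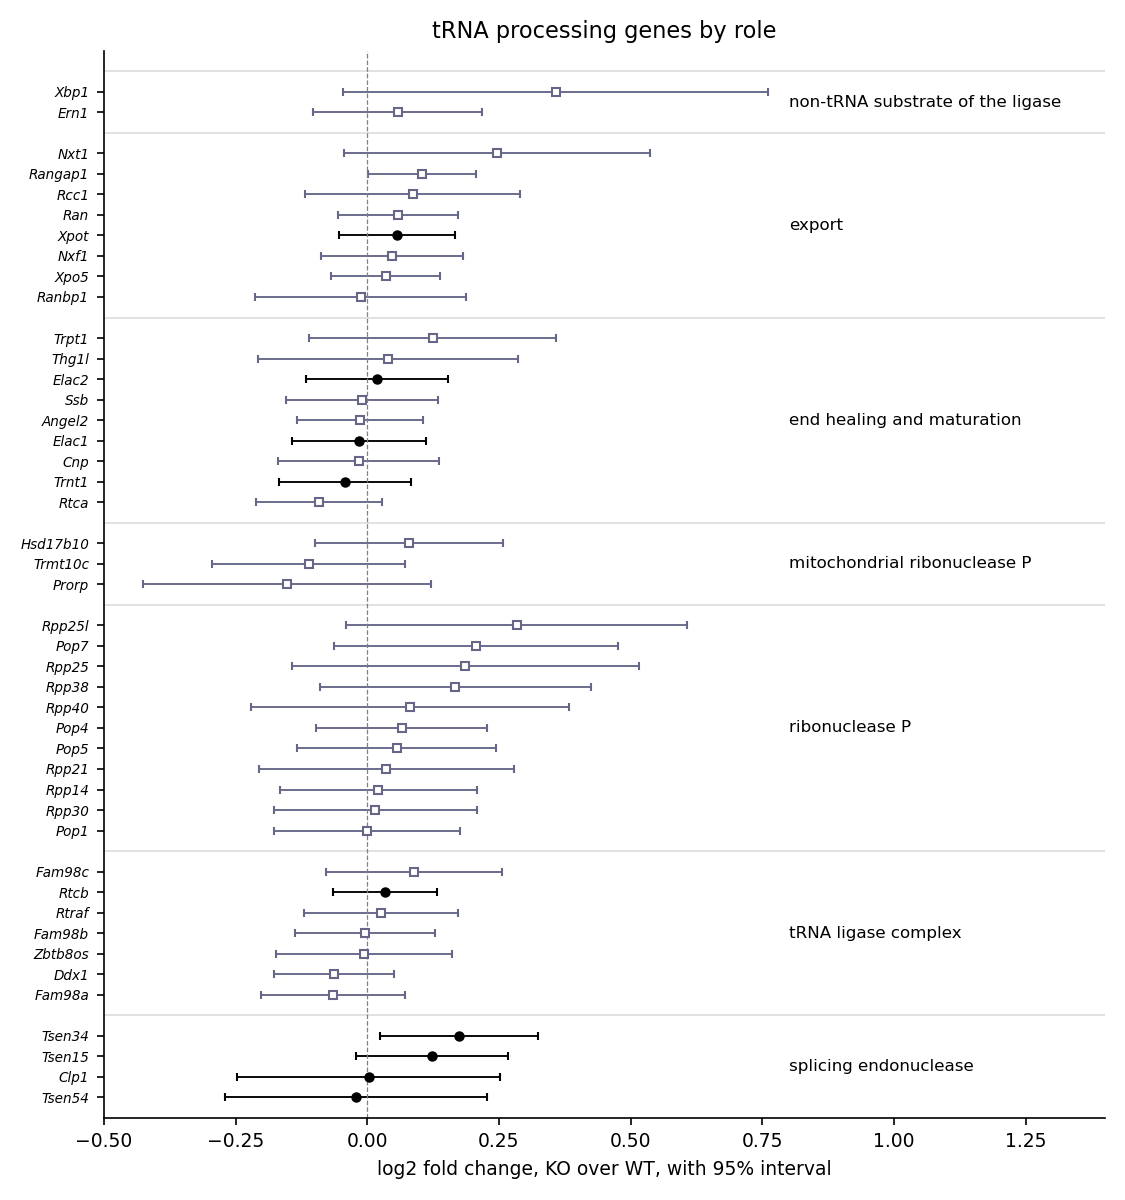
Log2 fold changes (horizontal axis, KO over WT) with 95% intervals of the 44 genes grouped by role, the 9 selected genes as black circles and the others as open squares. Values lie between -0.15 for Prorp and 0.36 for Xbp1.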

How the data were processed

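Long RNA of whole brain was measured in 3 KO and 3 WT libraries. The authors deposited whole-number read counts per gene, 1 table for each library, and the submitters' processing notes name cutadapt 1.9.1 and STAR 2.7.0f; build and annotation are not given in the sources used here. The 55450 gene IDs are exactly those of GENCODE M21 (GRCm38), which supplied names, positions and lengths. Sense-strand counts (the fourth column, 94.6% to 94.8% of stranded counts) were used; rows that name no gene stayed out. Reads outside genes (48.6% to 52.2% of mapped reads), at several places (4.61% to 5.60%) or in several genes (0.784% to 0.909%) are not in gene counts.

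Counts were analysed in R 4.3.3 with edgeR 4.0.16: filterByExpr, TMM scaling, a quasi-likelihood fit on genotype, and Benjamini-Hochberg adjustment over all 21237 genes, called at an adjusted p under 0.05. CPM use TMM-scaled totals. The SE is the log2 fold change over the square root of F, and 95% intervals use that SE with the test's degrees of freedom. They cover the spread between libraries. TPM were computed over all genes. The code was tested on simulated data. Alternatives used DESeq2 1.42.0 and limma 3.58.1. GC correction took offsets from a lowess fit (span 0.3) of each library on transcript GC content.

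The 9 genes, the wider list and the motifs were chosen with earlier results of these data known. Named genes were the 9, Trmt1l, and genes of the wider list with an unadjusted p under 0.05 (Rangap1, besides a member). The 3 genes most like the member of smallest p were also to be named. Ddx1, Fam98a, Fam98c, Xbp1, Ern1, Rpp25l, Prorp, Hsd17b10, Rtca and Cnp were named after their values were seen. A gene was left out of the wider list and is not reported here. Libraries of a group differed by more than counting noise (chi-square per degree of freedom 4.40 to 9.50), so none looked like a library deposited more than once, and each counted as 1 replicate as labelled.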

Additional observations from a re-analysis of the deposited data

How the results depend on the processing

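In 17 alternatives (strand column, scaling, filter, test, gene type, replicate block, GC content and 6 fits without 1 library), 0 of the 9 genes were called in each, with the DESeq2 Wald test giving an adjusted p for Rtcb and Xpot alone. Tsen15, Tsen34, Rtcb and Xpot stayed positive in all 17, although in TPM, which is not among them, Rtcb and Xpot had lower means in KO, and the adjusted p of Tsen34, where given, ran from 0.528 to 0.9998. Genes called over the whole table were 2, but 298 with no filter on low counts, 26 by DESeq2, 1 among protein-coding genes, 4 with the replicate block and 2 to 5 without 1 library (5 without KO library 3). In the wider list 1 gene, Xbp1, was called with no filter (edgeR adjusted p = 2.67e-06). Its SE was 0.0617 in that fit and 0.184 in the main fit, and KO library 2 alone was high. The prior degrees of freedom, the weight given to the trend in each gene's variance, were infinite there and 7.53 in the main fit. The cause of the differences between settings was not tested. Genes without overlap and higher in KO numbered 2 to 4 without 1 library (4 without WT library 1, where 12.1% of all genes did so); those lower numbered 1 with a mean count of at least 50 (7.93% of all genes) and 0 to 1 without 1 library (1 without KO library 2, 11.9% of all genes). The median WT level of the 9 was 28.7 TPM, and 33.2 TPM for the unstranded column.

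Values near 0 changed sign. Clp1 was -0.0076 with total counts, -0.0020 with a mean count of at least 50 and -0.0080 among protein-coding genes. GC correction gave 0.012 for Elac1, -0.033 for Elac2 and 0.022 for Trnt1, and with the replicate block added 0.011, -0.033 and 0.022; Tsen54 kept its sign at -0.112 and -0.114. Without 1 library the ranges were -0.072 to 0.048 for Tsen54, -0.046 to 0.11 for Clp1, -0.048 to 0.029 for Elac1 and -0.017 to 0.053 for Elac2. The replicate numbers showed no pairing: deviations of same-numbered libraries correlated at 0.040, -0.031 and -0.058, and the replicate block changed no call among the 9 genes or the wider list.

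Counts were lowest for Tsen54 and Clp1, at 163 to 246 per library.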

Other observations

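The values of the 9 genes over the 6 libraries did not move as a group. Pearson's r of log2 CPM over the 36 pairs of genes ran from -0.81 for Trnt1 with Tsen34 to 0.77 for Tsen15 with Tsen34, with 18 of 36 above 0 and a median of -0.015. All pairs share the same 6 libraries and their scaling, so these are descriptions.

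The 3 genes outside the list whose log2 CPM followed Tsen34 most closely over the 6 libraries were Tm9sf1, with r = 0.997, Srebf2, which encodes a transcription factor of cholesterol synthesis, with r = 0.992, and Rexo1, with r = 0.989. They were the closest of 10639 genes with at least 10 CPM, of which 155 had r above 0.9, and with 6 points such values carry no test. Srebf2 had 179 to 183 CPM in WT and 184 to 192 CPM in KO libraries.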
